A study of Mus musculus with 30 samples.

Results

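The 38 genes described here encode proteins of the complement and coagulation systems that the liver secretes into plasma: C2, C3, C4b, Hc, C6, C8a, C8b, C8g, C9, Cfb, Cfi, C1s1, Masp1, Masp2, Mbl1, Mbl2, F2, F5, F7, F9, F10, F11, F12, F13b, Fga, Fgb, Fgg, Proc, Pros1, Serpinc1, Serpind1, Serping1, Serpina10, Kng1, Klkb1, Vtn, Hrg and Cpb2. They were taken by symbol from a table of 29117 genes, where all 38 were found once, and all 38 were among the 13589 genes tested. Its unit is FPKM, in which fragments are divided by transcript length and by the library's mapped fragments, for poly(A) RNA from the left liver lobe of 10-week-old C57BL/6J mice, an inbred strain, whose sex is not given in the sources used here. After a fast of 12 to 16 h the mice received an intraperitoneal injection, either human insulin at 0.7 U/kg or, as control, the salt buffer PBS. Livers were collected at 5 sampling points within 4 h, with 3 libraries per treatment and point, which the series' design text calls biological triplicates, so there were 15 insulin and 15 PBS libraries in 10 groups. The labels number the points without minutes, and no order in time is assumed. They also do not say whether point 1 was collected before or after the injection. The insulin libraries were named for lanes 1 and 2 (6 and 9 libraries) and the PBS libraries for lanes 3, 4 and 5 (5 each), so treatment and lane cannot be told apart in any difference below.

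Complement and coagulation are cascades of plasma proteases and their cofactors that circulate as inactive precursors and are switched on by cutting one another. In complement, recognition proteins and their proteases lead to C3, C3 fragments mark targets, and the terminal components form a pore in the membrane of the target. In coagulation, factors of the contact phase and factors that need vitamin K for their maturation lead to thrombin, which turns fibrinogen into fibrin, while plasma inhibitors hold the proteases in check. Hepatocytes make most of these proteins, and several of them, fibrinogen among them, are known as acute phase proteins whose transcription interleukin-6 raises.

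The members were expressed in every library, over a wide range of levels. Fga, the fibrinogen alpha chain, averaged 1610 FPKM over the 30 libraries, C3, the central protein of complement, 1332 FPKM and Fgg, the fibrinogen gamma chain, 1254 FPKM. Another 23 members averaged between 100 and 1000 FPKM, and 12 lay under 100. The lowest were F11, a protease precursor of the contact phase, at 21.7 FPKM, Pros1, the cofactor protein S, at 27.3 and Masp1, a protease of the lectin pathway, at 29.0. No member averaged under 10 FPKM, so the pseudocount of 1 in log2(FPKM + 1), the scale of every difference below, has little weight for these genes. Together they made up 1.47% to 1.9% of the summed FPKM in insulin and 1.68% to 2.38% in PBS. The coefficient of variation within a group of 3 libraries, as a median over the 10 groups, ranged from 5.25% for Klkb1 (plasma prekallikrein) to 18.2% for Masp2 (a protease of the lectin pathway), with a median member at 10.8%. Reads behind each value are not known from FPKM, so the spread between libraries is the error used throughout.

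Markers of hepatocytes, all 10 of which were found, summed to 39400 to 55300 FPKM in insulin and 44600 to 55800 in PBS. They did not move alike: at points 4 and 5 Asgr1 was called lower (-0.39 and -0.45) and Tat higher (1.26 and 1.05). The Tat calls, and not those of Asgr1, passed with the median-ratio scaling and the GC correction described below. Markers of sinusoidal endothelial cells, with all 8 found and none at 0 throughout, summed to 50.4 to 79.2 FPKM in insulin and 71.0 to 95.4 in PBS. Of these, 5 of 8 were called lower at point 5, where 16.1% of all genes fell. Kupffer cell markers (8 of 8 found) summed to 56.2 to 117 and 75.0 to 214 FPKM. At point 4, where 10.4% of all genes fell, 3 of 8 were called lower (Clec4f at -0.56, Cd5l at -0.92 and Csf1r at -0.79). At point 5 it was 1 of 8 (Csf1r). C1qa, C1qb and C1qc, complement genes known from macrophages, also fell at point 4 (-0.79, -1.03 and -0.73). The PBS libraries were uneven there, with C1qa at 37.0 FPKM (SD 14.3) in PBS and 20.3 (SD 3.61) in insulin. The part of these cell types in the results below was not tested, and in bulk tissue fewer cells of a type and less RNA per cell cannot be told apart. The median difference of all genes tested was -0.06, -0.12, -0.14, -0.14 and -0.17 at points 1 to 5, so a small negative difference was common to most of the transcriptome. Median-ratio size factors, which put the libraries on 1 scale, were 0.832 to 0.91 for the 5 insulin libraries of replicate 1, 0.934 to 1.05 for the other 10 insulin libraries and 0.945 to 1.12 for PBS. Results are therefore also given after median-ratio scaling and without insulin replicate 1. Of the 5 endothelial calls at point 5, only Stab1 passed with median-ratio scaling and only Fcgr2b with the GC correction described below. Of the Kupffer cell and C1q calls at point 4, Clec4f and C1qc did not pass with median-ratio scaling, and only Cd5l and C1qb passed with GC correction. The Csf1r call at point 5 passed with neither.

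The treatments were compared within each point, and every call among the members, where there was one, was in the direction of less RNA in insulin. A gene is said to have passed, risen or fallen when limma's test gave a Benjamini-Hochberg adjusted p under 0.05 over all 13589 genes. None of the 38 members passed at point 1, where 0.00736% of all genes did (2 members had an unadjusted p under 0.05), and none passed at point 2, where 1.35% did (again 2 at unadjusted p). At point 3, 3 members fell (Serping1, F7 and F12), or 7.89% of the members, where 7.26% of all genes fell. At point 4, 5 fell (those 3, F11 and Serpina10), or 13.2%, where 10.4% of all genes fell. At point 5, 12 of 38 fell, or 31.6%, where 16.1% of all genes fell, and no member rose. They were the complement genes C2, C4b, Serping1 and Vtn, the vitamin K-dependent F2, F7, F10 and Proc, the contact phase genes F11 and F12, and the inhibitors Serpind1 and Serpina10. The median difference of the 38 members was -0.04, -0.07, -0.14, -0.24 and -0.26 at points 1 to 5, against -0.06, -0.12, -0.14, -0.14 and -0.17 for all genes tested. The members lay below all genes at points 4 and 5 and not at points 1 to 3. Errors are SE of differences between groups of 3 libraries. They come from limma's fit to all 30 libraries, with 1 estimate of spread per gene shared by the 10 groups.

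**Figure D1:**
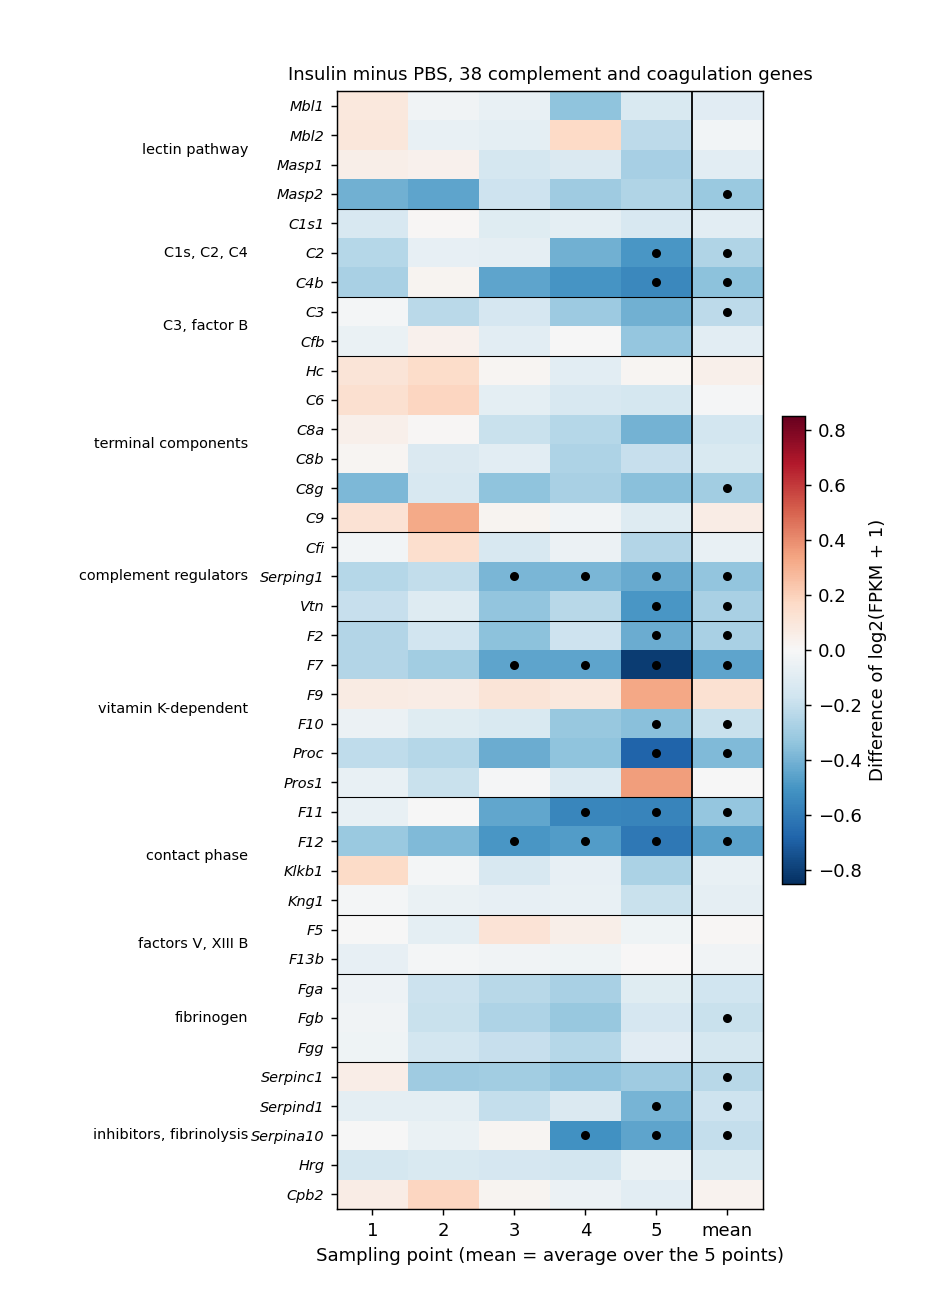
Difference of log2(FPKM + 1), insulin minus PBS (colour, red higher and blue lower in insulin), of the 38 genes (vertical axis, by role) at each sampling point and averaged over the 5 points (horizontal axis); black dots mark limma's adjusted p under 0.05. Dots appear at points 3, 4 and 5 (3, 5 and 12 members) and in the average (17), all on blue fields, while F9 is red in every column as deposited (with GC correction its sign turned at points 1, 3 and 4).

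In the lectin pathway, where Mbl1 and Mbl2 (mannose-binding lectins) bind sugars and Masp1 and Masp2 are the proteases they carry, no gene passed at any single point. Mbl1 did vary among the 5 insulin groups (F test in limma, adjusted p = 0.00149). Its insulin libraries held 104.6, 103.2 and 109.5 FPKM at point 1 and 53.2, 68.0 and 76.4 FPKM at point 5, with group means of 105.8, 92.7, 81.6, 71.7 and 65.9 FPKM at points 1 to 5. The lowest library of insulin point 1 thus lay above the highest of insulin point 5. PBS group means were 99.3, 94.8, 85.1, 91.4 and 71.7 FPKM, and the same F test in PBS gave adjusted p = 0.135. The test of whether the Mbl1 difference between treatments depended on the point gave adjusted p = 0.685, so the variation is not shown to be particular to insulin. Masp2, described after its values were seen, lay lower in insulin at points 1 and 2 without overlap, at 41.0, 70.7 and 65.2 against 71.1, 76.8 and 81.9 FPKM at point 1 and at 59.6, 44.1 and 43.0 against 64.7, 63.8 and 71.0 at point 2. Those differences were -0.41 and -0.45 ± 0.22 (SE; limma adjusted p = 0.642 and 0.283). Masp1 held 24.3, 26.4 and 27.5 FPKM in insulin and 30.8, 29.8 and 35.2 in PBS at point 5, apart but not past the test (-0.28, limma adjusted p = 0.0629).

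Of the genes that follow recognition, C4b and C2, whose products form the C3 convertase of the classical and lectin pathways, fell at point 5 and C1s1, a protease of C1, passed at no point. C4b held 93.7, 113.9 and 108.8 FPKM in insulin and 152.7, 152.4 and 158.0 in PBS at point 5. The 3 PBS libraries lay within 6 FPKM of each other and every insulin library lay below them (-0.55 ± 0.19, SE, limma adjusted p = 0.0458). C2 held 22.8, 26.4 and 21.6 against 27.4, 38.7 and 35.2 FPKM there, also without overlap (-0.49 ± 0.14, limma adjusted p = 0.0190). Cfb, factor B of the alternative pathway, lies beside C2 on chromosome 17 (Cfb at 34856374 to 34862518 and C2 at 34862604 to 34898265, both on the minus strand, GRCm38), and its groups overlapped at point 5 (-0.33, limma adjusted p = 0.0779). C4b has a close copy, C4a, and C1s1 has C1s2. How reads shared by such copies were assigned is not given in the sources used here, so these values are uncertain.

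C3 itself did not pass at a single point. Its libraries held 1092, 1179 and 1157 FPKM in insulin and 1325, 1877 and 1401 in PBS at point 5, where the groups did not overlap (-0.41 ± 0.15, SE, limma adjusted p = 0.0649). At point 1 they held 1357, 1142 and 1347 against 1194, 1359 and 1331 FPKM, with full overlap (-0.02). Averaged over the 5 points C3 fell by 0.22 (limma adjusted p = 0.0121), and that call ended with median-ratio scaling (-0.06, adjusted p = 0.446), quantile normalization (-0.19, adjusted p = 0.0684) and GC correction (0.01, adjusted p = 0.952). It also ended without insulin replicate 1 (-0.16, limma adjusted p = 0.0908) and without PBS replicate 2 (-0.18, limma adjusted p = 0.0708).

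The terminal components, Hc (complement C5), C6, C8a, C8b, C8g and C9, build the membrane pore, and none of the 6 passed at any point. C8a and C8b (alpha and beta chains of C8) lie side by side on chromosome 4 on opposite strands, while C8g (the gamma chain) lies on chromosome 2. C8a held 78.2, 122.3 and 125.0 FPKM in insulin at point 5 against 139.6, 143.5 and 138.1 in PBS, with no overlap (-0.40, limma adjusted p = 0.104). C8b held 90.0, 108.8 and 147.3 against 138.1, 123.1 and 128.1 FPKM there, with overlap (-0.20, limma adjusted p = 0.469), and C8g 141.6, 175.1 and 169.1 against 223.7, 188.6 and 208.0, with none (-0.35, limma adjusted p = 0.0764). C8g was lower in insulin at all 5 points and fell on average (-0.30 ± 0.06, SE, limma adjusted p = 0.000499), a call that GC correction ended (-0.06, adjusted p = 0.444). C9, which polymerizes into the pore, had a positive difference of 0.32 at point 2 with adjusted p = 0.444 in limma's test, and its insulin libraries there spread from 282.9 to 516.1 FPKM. C8a varied among the insulin groups (limma F test, adjusted p = 0.0423), from a mean of 171.5 FPKM at point 1 to 108.5 at point 5, but not among PBS groups (adjusted p = 0.867), and dependence of the difference on the point had adjusted p = 0.819. The call held under 6 of 13 alternatives and ended without any 1 of the insulin replicates and without PBS replicate 1 or 2 (limma adjusted p up to 0.278 over all alternatives).

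Among the complement regulators, Serping1 fell at points 3, 4 and 5, Vtn fell at point 5, and Cfi (factor I, which cuts C3b) passed at no point. Serping1 encodes the C1 inhibitor, which blocks proteases of both complement and the contact phase; the gene lies at chr2:84765387-84775444 on the minus strand (GRCm38). Its insulin libraries held 228.5, 271.4 and 243.4 FPKM at point 3 against 355.8, 330.4 and 289.2 in PBS. Point 4 gave 232.6, 252.0 and 270.0 against 369.8, 317.6 and 304.5 FPKM, while point 5 gave 210.2, 251.6 and 248.6 against 304.3, 335.8 and 316.6. At each of these 3 points every PBS library lay above every insulin library. The differences were -0.39, -0.39 and -0.43 ± 0.11 (SE), with limma adjusted p of 0.0313, 0.0243 and 0.0103. Vtn, vitronectin, a glycoprotein that keeps the terminal complex out of membranes, held 514.6, 651.9 and 583.9 FPKM in insulin and 705.3, 856.2 and 907.3 in PBS at point 5, with no overlap (-0.49 ± 0.14, limma adjusted p = 0.0143).

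The vitamin K-dependent group held both the largest fall and the only members with positive differences over 0.3 at point 5. F7 (factor VII, which starts coagulation together with tissue factor), Proc (protein C, which inactivates factors V and VIII), F2 (prothrombin) and F10 (factor X) fell at point 5, while F9 (factor IX) and Pros1 (protein S, the cofactor of protein C) did not pass as deposited. F7, at chr8:13026034-13035809 on the plus strand (GRCm38), held 23.9, 24.4 and 24.8 FPKM in insulin and 36.6, 49.7 and 45.1 in PBS at point 5. The 3 insulin libraries lay within 1 FPKM of each other and well under the lowest PBS library, a difference of -0.81 ± 0.14 (SE, limma adjusted p = 0.000474). At point 3 the insulin libraries held 21.2, 28.4 and 28.5 FPKM against 39.3, 33.6 and 33.7 (-0.45, limma adjusted p = 0.0398), and at point 4 25.9, 21.5 and 32.2 against 37.7, 32.7 and 38.4 (-0.45, limma adjusted p = 0.0303). F7 did not overlap at point 1 either, with 29.4, 28.7 and 30.8 against 32.4, 39.2 and 34.7 FPKM, nor at point 2, with 24.4, 28.0 and 26.4 against 32.4, 36.2 and 29.2, but it did not pass at those points.

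F10 follows F7 on the same strand (chr8:13037308-13056676), and it held 130.3, 157.9 and 143.1 FPKM in insulin against 173.3, 197.5 and 179.7 in PBS at point 5 (-0.35 ± 0.12, SE, limma adjusted p = 0.0450). Proc held 124.3, 164.2 and 153.9 FPKM against 236.3, 221.9 and 247.5 there, with the highest insulin library well under the lowest of PBS (-0.68 ± 0.15, limma adjusted p = 0.00307). F2 held 408.3, 492.6 and 453.6 against 549.7, 624.9 and 639.0 FPKM, again without overlap (-0.42 ± 0.13, limma adjusted p = 0.0226). F9 went the other way in its means at all 5 points, by 0.07, 0.06, 0.11, 0.09 and 0.33, though its groups overlapped at each, no difference passed, and with GC correction the sign turned at points 1, 3 and 4. At point 5 its insulin libraries held 108.2, 125.4 and 133.2 FPKM and its PBS libraries 88.6, 113.6 and 89.7. Pros1 held 27.9, 35.7 and 45.5 FPKM in insulin and 29.6, 28.2 and 25.5 in PBS at point 5 (0.35, limma adjusted p = 0.0919), where insulin replicate 3 stood highest and replicate 1 lay within the PBS range. Without insulin replicate 1, Pros1 passed at point 5 (0.52, limma adjusted p = 0.0301). The values of F9 in each library are given because its sign was noticed, and not by the naming rule.

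**Figure D2:**
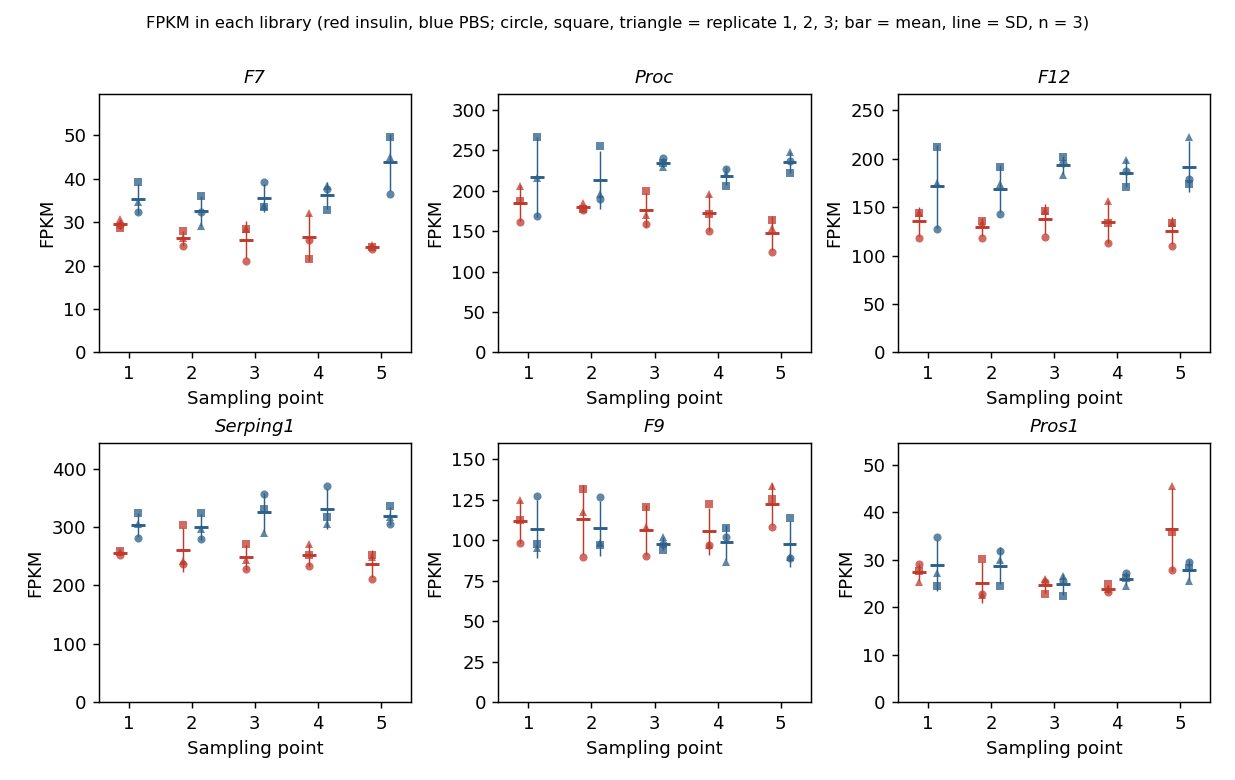
FPKM (vertical axis, from 0) of F7, Proc, F12, Serping1, F9 and Pros1 in each library at the 5 sampling points (horizontal axis), insulin in red and PBS in blue, with the mean (bar) and SD (line) of each group of 3. At point 5 the red points of F7, Proc, F12 and Serping1 lie below all blue points, and those of F9 and Pros1 overlap the blue ones.

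The promoters of F7 and F9 are printed because these genes of one group had differences of opposite sign at all 5 points as deposited. Each line gives the 250 bases before the annotated start in RefSeq (GRCm38.p6), 5′ to 3′ on the gene's strand, with capitals for matches to any of 4 motifs of liver and general promoters searched on both strands: TTGCNNAA (C/EBP), TGNACTTTG (HNF4), CTGGGAA (interleukin-6 response) and TATAAA (a core promoter box). F7 is at chr8:13025784-13026033 (plus strand) and F9 at chrX:59999214-59999463 (plus strand).
F7: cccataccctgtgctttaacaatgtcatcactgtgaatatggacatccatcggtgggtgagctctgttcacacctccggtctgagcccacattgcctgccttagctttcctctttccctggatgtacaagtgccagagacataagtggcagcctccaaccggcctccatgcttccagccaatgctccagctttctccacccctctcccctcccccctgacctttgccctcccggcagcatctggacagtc
F9: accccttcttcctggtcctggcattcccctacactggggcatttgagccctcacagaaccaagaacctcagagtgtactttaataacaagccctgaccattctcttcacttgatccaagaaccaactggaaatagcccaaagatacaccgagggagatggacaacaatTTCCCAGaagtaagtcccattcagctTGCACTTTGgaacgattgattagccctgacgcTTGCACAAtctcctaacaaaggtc
The F9 window held a C/EBP match (TTGCACAA, bases -24 to -17 from the start), an HNF4 match (TGCACTTTG, -56 to -48) and an interleukin-6 response match (TTCCCAG, -82 to -76). The F7 window held no match to the letters of any of the 4 motifs. Of the 38 members, 29 had a promoter in the table. A C/EBP match was found in 9 of these 29 (31.0%) and in 9.56% of all 32851 promoters, an interleukin-6 response match in 4 (13.8%) and 9.10%, a TATAAA match in 3 (10.3%) and 12.4%, and an HNF4 match in 1 (3.45%, F9) and 1.19%. A match of letters is a description and not a bound site. Variants of these motifs with other letters were not searched for, so a window without a match is not shown to lack such a site.

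In the contact phase, F12 (factor XII) and F11 (factor XI) fell, and Klkb1 (prekallikrein) and Kng1 (kininogen) passed at no point. F12, at chr13:55417958-55426793 on the minus strand (GRCm38), held 119.5, 146.2 and 146.2 FPKM in insulin against 195.2, 201.1 and 183.2 in PBS at point 3, and 113.0, 134.0 and 155.9 against 187.3, 170.3 and 199.0 at point 4. At point 5 it held 109.6, 133.7 and 133.4 FPKM against 179.2, 173.8 and 222.5. None of these 3 points had overlap, and the differences were -0.49, -0.47 and -0.60 ± 0.16 (SE; limma adjusted p = 0.0478, 0.0480 and 0.0104). F11, the lowest member, held 18.5, 15.8 and 16.1 FPKM in insulin against 23.1, 23.7 and 29.0 at point 4 (-0.56 ± 0.18, SE, limma adjusted p = 0.0457). At point 5 it held 14.6, 17.8 and 20.2 against 28.4, 29.8 and 21.1 FPKM (-0.56, limma adjusted p = 0.0341), a gap of under 1 FPKM between the nearest libraries. Klkb1 lies next to F11 on chromosome 8, on the same strand, and was at 49.6, 53.4 and 50.9 FPKM in insulin against 61.0, 65.9 and 59.2 in PBS at point 5 (-0.27, limma adjusted p = 0.0623). Among the insulin groups Klkb1 varied (limma F test, adjusted p = 0.0388), from 67.6 FPKM at point 1 to 51.3 at point 5, with adjusted p = 0.93 in PBS and 0.495 for dependence of the difference on the point. That call held under 5 of 13 alternatives and ended with any 1 of the 6 replicates left out (limma adjusted p up to 0.363 over all alternatives). Kng1, which has a close copy in Kng2, was lower by 0.19 at point 5 with overlap (limma adjusted p = 0.343). F5 (factor V, a cofactor) and F13b (the B subunit of factor XIII, which cross-links fibrin) kept differences between -0.09 and 0.12 at every point, and none passed.

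The 3 fibrinogen chains, which are assembled into 1 molecule, lie together on chromosome 3 (GRCm38): Fgg at 83007724 to 83015049 and Fga at 83026076 to 83033627 on the plus strand, and Fgb at 83040141 to 83049863 on the minus strand. None passed at any single point, and their differences lay close together. In the order Fga, Fgb, Fgg they were -0.04, -0.03 and -0.04 for point 1 and -0.18, -0.19 and -0.15 for point 2. Point 3 gave -0.24, -0.26 and -0.20. Point 4 gave -0.27, -0.32 and -0.25, and point 5 gave -0.10, -0.14 and -0.10. At point 2 all 3 chains were lower in every insulin library than in any PBS library, though for Fgg the nearest libraries held 1288 and 1294 FPKM. The share of all genes without overlap at point 2 is not given here. With median-ratio scaling the differences at that point were -0.02, -0.04 and 0.004. Fga held 1251, 1143 and 1541 FPKM in insulin and 1793, 1511 and 1434 in PBS at point 4. Fgb held 627.7, 614.6 and 784.6 against 934.8, 793.1 and 799.8 FPKM, the one chain without overlap there. Fgg held 980.8, 941.4 and 1173 against 1375, 1150 and 1141 FPKM. At point 5 the spread within a group was wider than any difference: Fga ranged from 1347 to 1965 FPKM in insulin and from 1310 to 2152 in PBS. Averaged over the points Fgb fell by 0.19 (limma adjusted p = 0.0195), a call that ended with median-ratio scaling (-0.03, adjusted p = 0.684) and quantile normalization (-0.08, adjusted p = 0.308). It also ended without insulin replicate 1 (-0.13, limma adjusted p = 0.168), without PBS replicate 2 (-0.17, limma adjusted p = 0.0670) and without PBS replicate 3 (-0.19, limma adjusted p = 0.0588). Their promoters are printed because the levels of the chains varied together from library to library. Fga is at chr3:83025903-83026152 (plus strand), Fgb at chr3:83049864-83050113 (minus strand) and Fgg at chr3:83007474-83007723 (plus strand), from RefSeq on GRCm38.p6, with capitals for the same 4 motifs. The RefSeq start of Fga lies inside the gene as placed above from GENCODE M21, so the end of its window overlaps that gene. Motif positions are counted from the RefSeq start.
Fga: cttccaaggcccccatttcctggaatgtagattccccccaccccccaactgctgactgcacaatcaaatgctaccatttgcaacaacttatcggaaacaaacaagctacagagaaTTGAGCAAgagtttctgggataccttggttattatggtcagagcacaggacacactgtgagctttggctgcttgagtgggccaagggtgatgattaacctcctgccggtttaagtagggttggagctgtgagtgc
Fgb: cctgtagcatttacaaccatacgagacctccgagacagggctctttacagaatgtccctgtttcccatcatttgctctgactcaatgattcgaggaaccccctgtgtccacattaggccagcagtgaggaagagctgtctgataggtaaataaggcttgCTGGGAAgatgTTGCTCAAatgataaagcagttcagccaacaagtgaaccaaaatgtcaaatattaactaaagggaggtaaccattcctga
Fgg: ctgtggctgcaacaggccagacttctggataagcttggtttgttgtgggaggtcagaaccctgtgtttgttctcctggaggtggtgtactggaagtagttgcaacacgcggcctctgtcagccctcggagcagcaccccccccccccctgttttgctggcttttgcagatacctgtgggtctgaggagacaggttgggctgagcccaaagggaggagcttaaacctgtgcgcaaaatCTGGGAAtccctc
Fga held a C/EBP match (TTGAGCAA, -135 to -128). Fgb held a C/EBP match (TTGCTCAA, -80 to -73) and an interleukin-6 response match (CTGGGAA, -91 to -85). Fgg held the last motif alone (CTGGGAA, -13 to -7).

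Within a library the ratio of 2 chains is not changed by a factor common to all genes, such as a size factor, but it is changed by a correction for GC content. The ratio of Fga to Fgg was 1.18 to 1.38 over the 15 insulin libraries (median 1.28) and 1.18 to 1.37 in PBS (median 1.30), a coefficient of variation of 4.33% against 15.2% for Fgg alone. Fgb to Fgg was 0.587 to 0.728 (median 0.640) in insulin and 0.607 to 0.707 (median 0.678) in PBS, with a coefficient of variation of 5.25%. The chains of fibrinogen therefore kept their proportions more closely than each kept its level. The C8 chains scattered more: C8a to C8b ranged from 0.848 to 1.44 (median 1.15) in insulin and from 1.01 to 1.51 (median 1.17) in PBS (coefficient of variation 12.7%, against 17.1% for C8b), and C8g to C8b from 1.00 to 1.86 (median 1.42) and from 1.17 to 2.37 (median 1.53). The ratio of C8g to C8b had a coefficient of variation of 19.9%, above that of C8b (17.1%) and of C8g (16.6%), so this pair did not keep its proportion more closely than its levels. As deposited, none of the 4 ratios passed in permutation tests (two-sided, labels permuted within points, 100000 resamples, adjusted over the 4). In these permutation tests the differences of log2 ratios were -0.02 (p = 0.415, adjusted 0.554), -0.04 (p = 0.111, adjusted 0.221), -0.03 (p = 0.631, adjusted 0.631) and -0.17 (p = 0.0688, adjusted 0.221) in the order above. Both of the lower p-values depended on 1 replicate series, since Fgb to Fgg reached -0.07 (permutation test, adjusted p = 0.0212) without insulin replicate 1, and C8g to C8b -0.27 (permutation test, adjusted p = 0.0365) without PBS replicate 1. With GC correction, chosen after seeing the data, Fga to Fgg turned to 0.13 (permutation test, adjusted p = 4e-05, the smallest these permutations can give), and C8g to C8b stood at -0.01 (permutation test, adjusted p = 0.915).

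**Figure D3:**
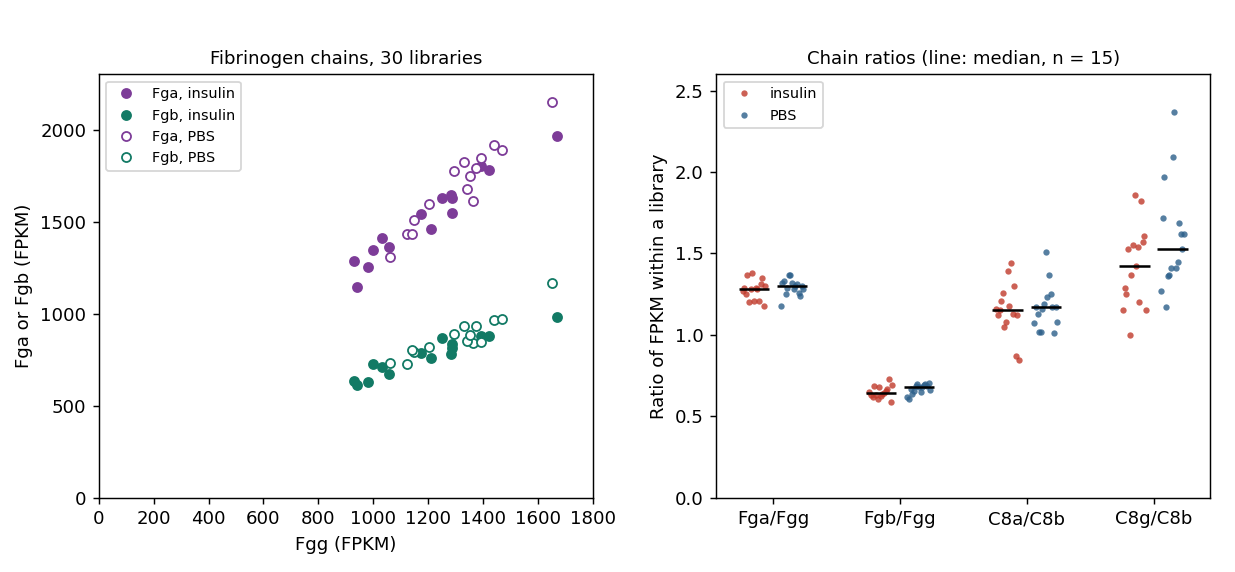
Left, Fga and Fgb (vertical axis, FPKM) against Fgg (horizontal axis, FPKM) in the 30 libraries, filled for insulin and open for PBS; right, chain ratios of FPKM within each library (points, 15 per treatment) with medians as lines. Fga and Fgb rise with Fgg along narrow bands shared by both treatments, and the ratios of the C8 chains scatter more widely than those of fibrinogen.

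Of the inhibitors and regulators of fibrinolysis, Serpina10 (protein Z-dependent protease inhibitor) fell at points 4 and 5 and Serpind1 (heparin cofactor II) at point 5, while Serpinc1 (antithrombin), Hrg (histidine-rich glycoprotein) and Cpb2 (the carboxypeptidase that slows fibrinolysis) passed at no point. Serpina10 held 27.2, 26.8 and 29.9 FPKM in insulin against 43.5, 36.4 and 41.6 in PBS at point 4, with no overlap (-0.52 ± 0.14, SE, limma adjusted p = 0.0168). At point 5 it held 28.5, 27.9 and 28.2 against 32.8, 45.2 and 39.3 FPKM (-0.45, limma adjusted p = 0.0255). Serpina10 had the smallest adjusted p of the members for a dependence on the point, 0.289, so no member's difference is shown to vary among points. Serpind1 held 139.1, 156.4 and 145.4 FPKM against 172.0, 224.3 and 188.3 at point 5 (-0.40 ± 0.11, limma adjusted p = 0.0183). Serpinc1 held 483.5, 401.5 and 501.7 FPKM in insulin and 676.1, 496.6 and 541.4 in PBS at point 5, with overlap (-0.30 ± 0.17, limma adjusted p = 0.203).

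A further set of tests asked about variation among points. The difference between treatments depended on the point for none of the 38 members (1 at unadjusted p under 0.05), where 1.77% of all genes passed. The PBS groups differed among points for none (3 at unadjusted p under 0.05, smallest adjusted p 0.135 for Mbl1), where 3.27% of all genes passed. The insulin groups differed for 4 members, Mbl1, C8a, Klkb1 and Pros1, or 10.5%, where 13.3% of all genes passed. Mbl1 passed under 13 of 13 alternatives and Pros1 under 7. Pros1 had insulin means of 27.3, 25.1, 24.6, 23.9 and 36.4 FPKM at points 1 to 5 (limma F test, adjusted p = 0.0399). The point 5 value was the high one, and the call ended without insulin replicate 2 or 3 or without any 1 of the PBS replicates, with adjusted p up to 0.474 over all alternatives. PBS libraries enter this test through the shared estimate of spread.

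Averaged over the 5 points, with 15 libraries per treatment, 17 members fell and none rose (44.7%, where 37.6% of all genes fell). The 12 that fell at point 5 were among them, joined by Masp2, C3, C8g, Fgb and Serpinc1. F12 and F7 had the largest average differences, -0.45 ± 0.07 and -0.45 ± 0.06 (SE), with limma adjusted p of 2.73e-05 and 5.80e-06. F12 ranged from 109.6 to 155.9 FPKM in insulin and from 127.2 to 222.5 in PBS. F7 ranged from 21.2 to 32.2 FPKM (median 26.4) in insulin and from 29.2 to 49.7 (median 36.2) in PBS. Serping1 stood at -0.33 ± 0.05 (limma adjusted p = 1.92e-05), behind Proc (-0.38) and C4b (-0.35) in size. F12, F7 and Serping1 were the members whose average call held under 13 of 13 alternatives, but with GC correction their differences were smaller. Over the 5 points F12 then stood at -0.11 to -0.13, against -0.31 to -0.60 as deposited. Serping1 stood at -0.03 to -0.17 against -0.21 to -0.43, and F7 at -0.07 to -0.45 against -0.25 to -0.81. F9 had the largest positive average, 0.13 ± 0.07 (limma adjusted p = 0.126). Leaving out insulin replicate 1 at all points left 11 lower and F9 as higher, and leaving out PBS replicate 2 left 13 lower.

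How many members fell depended on the scaling of the libraries. With median-ratio scaling, 3 members fell at point 5 (F7, Proc and F12) and F9 and Pros1 rose, so 5 of 38 passed, where 16.8% of all genes did in either direction. F9 then differed by 0.55 (limma adjusted p = 0.0198) and Pros1 by 0.57 (limma adjusted p = 0.0210). No member passed at points 3 and 4 with this scaling. On average 7 fell (F12, F7, Proc, Serping1, F2, C8g and Vtn) and 4 rose (F9, Cpb2, F5 and Hc), where 40.4% of all genes passed. The sign of the difference turned for 12 members at point 5, none of which had passed.

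**Figure D4:**
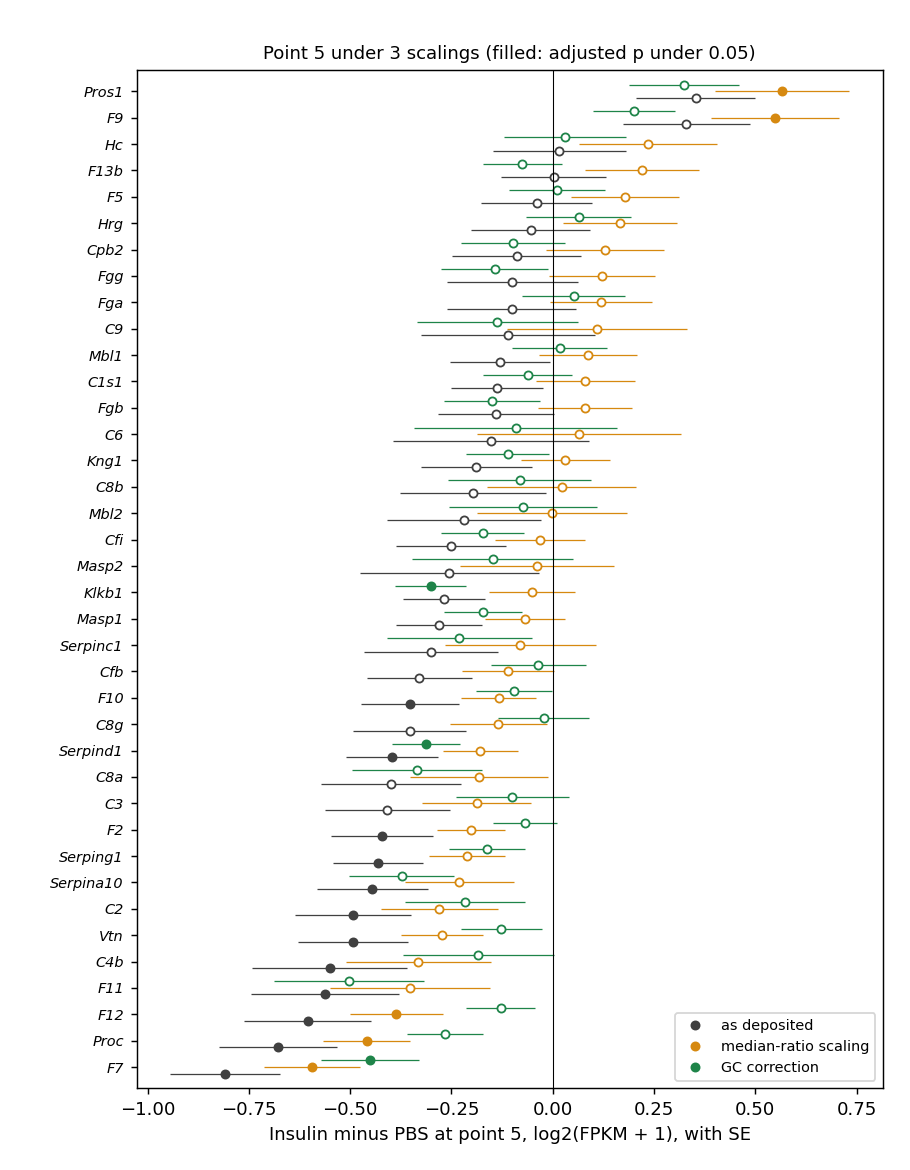
Insulin minus PBS at point 5 in log2(FPKM + 1) (horizontal axis, bars are SE) for the 38 genes (vertical axis), as deposited, after median-ratio scaling and after GC correction; filled points have limma's adjusted p under 0.05. F7 is filled in all 3 versions, F9 and Pros1 are filled after median-ratio scaling, and Klkb1 after GC correction.

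The differences also followed the GC content of the transcripts. The members' transcripts ranged from 39.0% GC (F9) to 58.5% (F12), with a median of 47.6% against 49.7% for all genes tested. Over the 38 members Spearman's rho between GC content and the difference was -0.61, -0.43, -0.59, -0.48 and -0.71 at points 1 to 5, and over the 13580 genes with a known GC content it was -0.40, -0.38, -0.51, -0.46 and -0.54 (across genes of the same libraries, given as a description). At point 5 the 7 members at 54% GC or more (C4b, C8g, Vtn, F2, F7, Proc and F12) had a median difference of -0.55, and all 3644 genes in that range had -0.42. The 5 members at 50% to 54% had -0.41 against -0.26, the 17 at 46% to 50% had -0.22 against -0.11, the 7 at 42% to 46% had -0.10 against 0.02, and the 2 below 42% (F9 and F13b) had 0.17 against 0.13. The members' medians thus declined from range to range with GC content, as those of all genes did, and were a little lower in 4 of the 5 ranges. At 42% to 46% the signs differed.

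**Figure D5:**
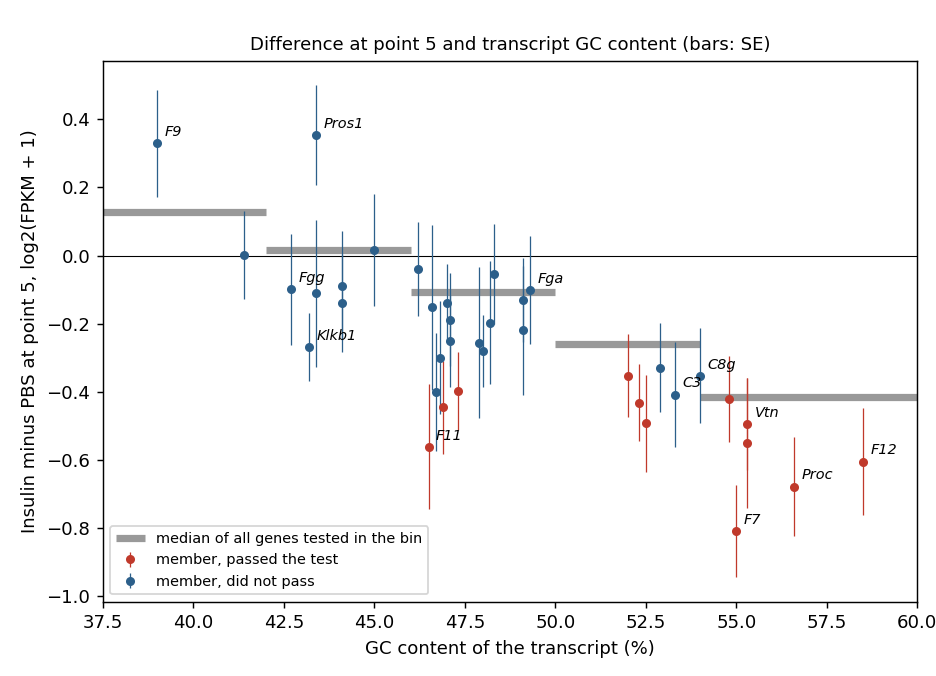
Insulin minus PBS at point 5 in log2(FPKM + 1) (vertical axis, bars are SE) against the GC content of the transcript in percent (horizontal axis) for the 38 genes, red where limma's adjusted p was under 0.05; grey bars are the median of all genes tested in each range of GC content. The members fall from F9 at 39.0% GC to F7, Proc and F12 at 55.0% to 58.5%, along with the grey medians.

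After a correction that removed, within each library, the smooth relation of the values to GC content, 3 members (7.89%) fell at point 5 (F7, Serpind1 and Klkb1). Among all 13589 genes 469 fell and 563 rose there. The 7.59% of all genes that passed counts both directions, so it is not the like of the members' 7.89%. F7 kept a difference of -0.45 (limma adjusted p = 0.0238), while Proc stood at -0.27 (limma adjusted p = 0.0815) and F12 at -0.13 (limma adjusted p = 0.392). F9 stood at 0.20 and Pros1 at 0.32, and neither passed. On average 8 (21.1%) fell and none rose (Fgb, F7, F11, Serping1, Fgg, Serpind1, F12 and Masp2). Among all 13589 genes 1588 fell and 1749 rose on average. The 24.6% that passed again counts both directions, unlike the members' 21.1%. The part of GC content, or of the lanes, in these differences was not tested further.

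The libraries behind the calls mattered as well. At point 5 all insulin libraries lay below all PBS libraries for 17 of 38 members and above for none, where 29.0% of all genes lay below, and the number of members that passed was 3, 10 and 7 without insulin replicate 1, 2 or 3 and 10, 5 and 5 without PBS replicate 1, 2 or 3. The 3 without insulin replicate 1 were F7 and Proc, which fell, and Pros1, which rose. At point 3 the numbers were 0, 1 and 1, and 0, 0 and 1. At point 4 they were 0, 0 and 4, and 0, 3 and 1. Of the 12 calls at point 5, that of F7 held under 14 of 14 alternatives (limma adjusted p from 0.000339 to 0.0294), that of Proc under 13 (all but GC correction) and that of F12 under 11, ending with GC correction and without insulin replicate 1 or PBS replicate 3. Serping1 held under 10, Vtn and Serpind1 under 9, C2 and F2 under 6, F11 and Serpina10 under 5, and C4b and F10 under 4.

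Among other genes of the same pathways, a minority of each list fell at point 5, and Thbd, thrombomodulin, rose. The share of all genes that fell at that point was 16.1%. Of 24 other complement genes tested (of 28 listed), 7 fell at point 5 (29.2%), among them Cpn2 (a subunit of carboxypeptidase N, which trims complement peptides) and C1rl, and none rose, with a median difference of -0.30. With median-ratio scaling 2 of them fell (Cpn2 and C1rl) and Cfhr2 rose, and with GC correction 2 fell (C4bp and C1rl). At point 4 Cpn2 had group means of 49.2 FPKM in insulin against 85.4 in PBS (-0.79 ± 0.12, SE, limma adjusted p = 0.000208), and with median-ratio scaling it stood at -0.62 there. Of 11 other coagulation and fibrinolysis genes tested (of 19), 5 fell at point 5 (45.5%: Serpinf2, Hgfac, Proz, Mst1 and Plg) and Thbd rose, with a median of -0.37. With median-ratio scaling 3 fell (Serpinf2, Hgfac and Mst1) and with GC correction 1 did (Serpinf2), and Thbd rose under both. Serpinf2, the inhibitor of plasmin, held means of 166.6 and 303.3 FPKM at point 5 (-0.85 ± 0.15, SE, limma adjusted p = 0.000664), -0.63 with median-ratio scaling and -0.49 with GC correction. Of 9 genes for vitamin K and the processing of these proteins, 4 fell at point 5 (44.4%: Vkorc1, Furin, Tpst1 and Tpst2) and none rose. Vkorc1 and Furin passed with median-ratio scaling, and none of the 9 passed with GC correction. One of the 4 was Vkorc1, the vitamin K epoxide reductase, with means of 57.7 and 85.8 FPKM (-0.57 ± 0.14, SE, limma adjusted p = 0.00784; -0.35 with median-ratio scaling and -0.25, not past the test, with GC correction). Ggcx, the carboxylase that uses vitamin K, fell at points 3 and 4 (-0.44 and -0.42 ± 0.13, SE, limma adjusted p = 0.0329 and 0.0324) from PBS means of 14.7 and 14.6 FPKM, and neither call held with median-ratio scaling.

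Neighbouring programmes of the hepatocyte were mixed. Of 19 acute phase genes, 4 fell at point 5 (21.1%, where 16.1% of all genes fell: Saa4, Saa3, Itih3 and Hpx) and Crp, C-reactive protein, rose, with means of 233.0 FPKM in insulin and 178.6 in PBS (0.39 ± 0.13, SE, limma adjusted p = 0.0350). With median-ratio scaling Saa3 fell and Crp, Cp and Fgl1 rose, and with GC correction Crp rose and none fell. Of 23 other plasma protein genes, 4 fell at point 5 (Serpina1b, Fetub, Serpina1e and Apom) and none rose, with a median difference of -0.22. That is 17.4%, close to the share of all genes, and none of these 4 passed with median-ratio scaling or GC correction. Of 12 liver transcription factors and interleukin-6 signalling genes, Cebpa and Foxa3 fell at point 5, and neither passed there with GC correction. At point 3 Cebpa, the C/EBP alpha factor, had means of 57.9 FPKM in insulin against 107.4 in PBS (-0.91 ± 0.19, SE, limma adjusted p = 0.00439). It passed there with median-ratio scaling too, and with GC correction it stood at -0.46 (limma adjusted p = 0.0368).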

How the data were processed

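Poly(A) RNA of 30 mouse liver libraries was made into directional libraries, per the labels' protocols. Per the submitters' processing notes, HISAT2 2.1.0, SAMtools 1.9 and StringTie 2.0.3 were used with the build GRCm38 (mm10); neither the annotation nor whether counting used strand is given there. The authors deposited FPKM per gene, scaled to transcript length and library, so the reads behind a value are unknown and no count test was run. Among all cells, 32.2% held no value and were set to 0; no member had such a cell. No 2 libraries of a group shared values.

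Groups and points came from the titles and lanes from the descriptions. A gene was tested if 3 or more libraries reached 1 FPKM (13589 genes). Its log2(FPKM + 1) values were modelled by limma 3.58.1 (R 4.3.3) as 10 group means with the variance trend option, leaving 20 residual degrees of freedom. All p-values were two-sided, and adjusted values used the Benjamini-Hochberg method over all genes tested. The members, lists, naming rule and tests were chosen with earlier results of these data known. Library values were given for up to 6 called members per point without overlap, the called members of the F tests, the 3 highest and 3 lowest members, the fibrinogen and C8 chains, C3 and Serpinc1; other members with library values passed at the point shown, except F9 and Masp2, chosen after their values were seen. Context genes were named by smallest adjusted p; some items are not reported here and are left out of the lists' counts.

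Alternatives were a pseudocount of 0.1, no filter, median-ratio scaling, a block for the replicate number, quantile normalization, lanes as random effects, only the 6 libraries of a point, each replicate left out, and, chosen after seeing the data, a GC correction (loess, span 0.3, of each library's deviations on the GC content of the longest coding transcript in GENCODE M21, for 13580 genes). Ratios were tested with NumPy 2.4.6. In simulated data of 13589 genes for point 3, the test recovered 31% of changes of 0.5 and 83% of changes of 1 on the log2 scale, with 2.56% of calls false. Promoters came from RefSeq on GRCm38.p6 and gene positions from GENCODE M21.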

Additional observations from a re-analysis of the deposited data

Results flagged for a closer look

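Among the genes listed beside the members and reported here, 3 had a difference between insulin and PBS that depended on the sampling point by the F test in limma, and none of the 38 members did. Thbd, thrombomodulin, the receptor that turns thrombin toward protein C, had an adjusted p of 0.0104 in limma's F test. Its differences were -0.41, 0.52, 0.86, 1.10 and 0.77 at points 1 to 5, and those at points 3, 4 and 5 passed (limma adjusted p = 0.00579, 0.000729 and 0.00677). At point 1 Thbd held only 0.515, 0.665 and 0.637 FPKM in insulin and 1.37, 1.35 and 0.732 in PBS. The pseudocount of 1 has much weight at such values. Socs3, a feedback inhibitor of interleukin-6 signalling, had an adjusted p of 0.00299 in limma's F test and rose at point 2 (8.43, 17.1 and 7.68 FPKM against 1.18, 1.5 and 2.21). Il6ra, the interleukin-6 receptor, had an adjusted p of 0.0337 in limma's F test, and fell at point 3 (13.4, 13.5 and 11.9 FPKM against 27.1, 27.6 and 23.3) while its difference at point 4 was 0.001.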

How the results depend on the processing

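At points 1 and 2, and in the tests of dependence on the point and of variation among PBS groups, no member passed under any alternative. At point 3 the 3 calls became 1 with no filter or only the 6 libraries of the point, 0 with median-ratio scaling, quantile normalization or GC correction, and 0 to 1 with a replicate left out. At point 4 the 5 calls became 2 with no filter, 0 with median-ratio scaling or only the 6 libraries, 1 with quantile normalization or GC correction, and 0 to 4 with a replicate left out. At point 5 the 12 calls became 5 with median-ratio scaling, 3 with GC correction, 4 with only the 6 libraries, and 3 to 10 with a replicate left out. On average the 17 calls became 11 with median-ratio scaling, 10 with quantile normalization, 8 with GC correction, and 12 to 19 with a replicate left out. Among the insulin groups the 4 calls became 2 with no filter and 1 to 2 with a replicate left out. With a replicate block the calls were 6, 9 and 17 at points 3, 4 and 5; the numbers share no stated animal or day, and same-numbered libraries correlated at -0.217 to 0.157 in their deviations, best with their own number in 6 of 15 cases. With GC correction the average differences of C3 and F10 turned to 0.007 and 0.0014, neither past the test. The ratio of Fgb to Fgg ranged from -0.0732 to -0.0168 and that of C8g to C8b from -0.2696 to -0.0816 with a replicate left out. With GC correction the ratio of Fga to Fgg turned from -0.0199 to 0.1334 (permutation test, adjusted p = 4e-05). The cause of these changes was not tested. Lane and treatment cannot be told apart, and leaving out 1 library assumes that the others of its group vary like the rest.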
